A study of Mus musculus with 13 samples.

Results

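The liver transcriptome of female C57BL6 mice, 12 weeks old, was compared between the diet labelled HFHS and the diet labelled ST, both given with vehicle. The samples were taken by their titles, which gave 5 HFHS arrays and 3 ST arrays, 8 of the 13 arrays of the series. The other 5 arrays, from mice on ST given a mixture of pollutants, entered only the estimate of the spread. HFHS is called a high-fat diet in the series text, its composition is not given in the sources used here, and ST is the standard diet. The labels name the samples biological replicates of total liver RNA and state no time of day, fasting state or body weight. The comparison asks what the diet alone changed in the liver. Cholesterol synthesis and uptake was the list with the most calls. Of its 25 tested genes 13 were called lower on HFHS, against 0.451% of all genes. What follows concerns the genes beyond this list.

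The liver receives dietary fat and sugar from the gut and fatty acids from adipose tissue. It stores fatty acids as triglyceride, oxidises them in mitochondria and peroxisomes, exports them in lipoproteins and disposes of sterols as bile acids. Many of these steps are set by transcription factors that respond to sterols, fatty acids and insulin, and many follow the daily rhythm of feeding. Liver cells also answer signals from neighbouring cells, among them bone morphogenetic proteins (BMPs), ligands that act through SMAD proteins to induce the Id genes and hepcidin.

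A level is given throughout as the log2 signal of a gene's probe minus the 75th percentile of its array, so that 0 is the level of that percentile. A difference is HFHS minus ST on the same log2 scale, with its standard error, and a gene was called when its adjusted p from limma was under 0.05. The 75th percentile lay between 782 and 1354 intensity units, and between 63.8% and 69.5% of probes were well above background on the 8 arrays. Hepatocyte markers were abundant on all 8, with list means of 7.08 to 7.55 in HFHS and 7.42 to 7.59 in ST.

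HFHS replicates 3, 4 and 5 held pancreatic acinar transcripts. The mean of 21 acinar markers was 3.82, 2.58 and 5.91 on these arrays, against -2.35 and -3.06 on HFHS replicates 1 and 2 and -2.89 to -2.27 in ST. The protease gene Prss2, for example, read 4.87, 3.85 and 7.23 on the former and between -6.17 and -4.53 on the other arrays. Skeletal muscle markers had list means of 0.26 on HFHS replicate 3 and -0.41 on ST replicate 3, ST replicate 1 lay between these, and the other 5 arrays lay between -4.49 and -2.86. The mean of adipocyte markers was higher on ST replicates 1 and 2, at -0.22 and -0.41 against -1.32 to -0.80 on the other 6 arrays. The adipokine gene Cfd read 0.57 on both and -3.50 to -0.85 on the others, and Retn -2.11 and -1.79 against -5.31 to -3.42. Not all members followed. Pparg read 1.35 and 1.33 on ST replicates 1 and 2 and 1.40 to 1.73 on HFHS, and Car3 6.67 and 7.14 against 7.08 to 7.85. No acinar, islet, muscle or adipocyte marker was called. In bulk tissue, fewer cells of a type and less RNA per cell cannot be told apart.

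**Figure D1:**
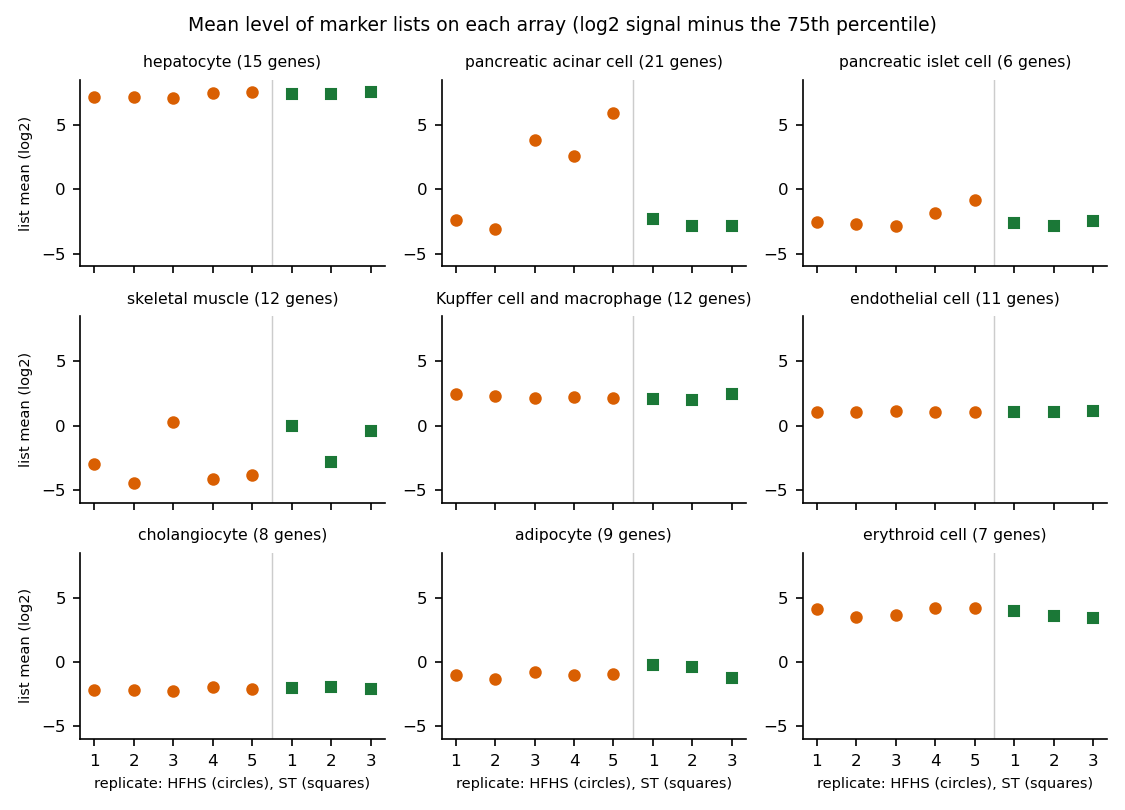
Mean level of 9 lists of cell type markers (vertical axis, log2 signal minus the 75th percentile) on each HFHS array (circles) and ST array (squares), by replicate number (horizontal axis). Acinar markers are high on HFHS replicates 3, 4 and 5, muscle markers on HFHS replicate 3 and ST replicates 1 and 3, and hepatocyte markers lie between 7.08 and 7.59 on all 8 arrays.

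Of 19515 genes and unnamed transcripts tested, 46 rose (0.236%) and 88 fell (0.451%) on HFHS, 134 in all (0.687%), and 19 and 41 of these did so by at least 2-fold. An unadjusted p under 0.05 was found for 2356 genes (12.1%). Of the called genes 36 belonged to 1 or more of the 39 pathway lists used here and 98 to none. The median difference of all genes was -0.02, with 8871 positive and 10644 negative. In 745 genes (3.82%) all HFHS arrays lay above all ST arrays, and in 1040 (5.33%) all lay below, together 1785 (9.15%).

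**Figure D2:**
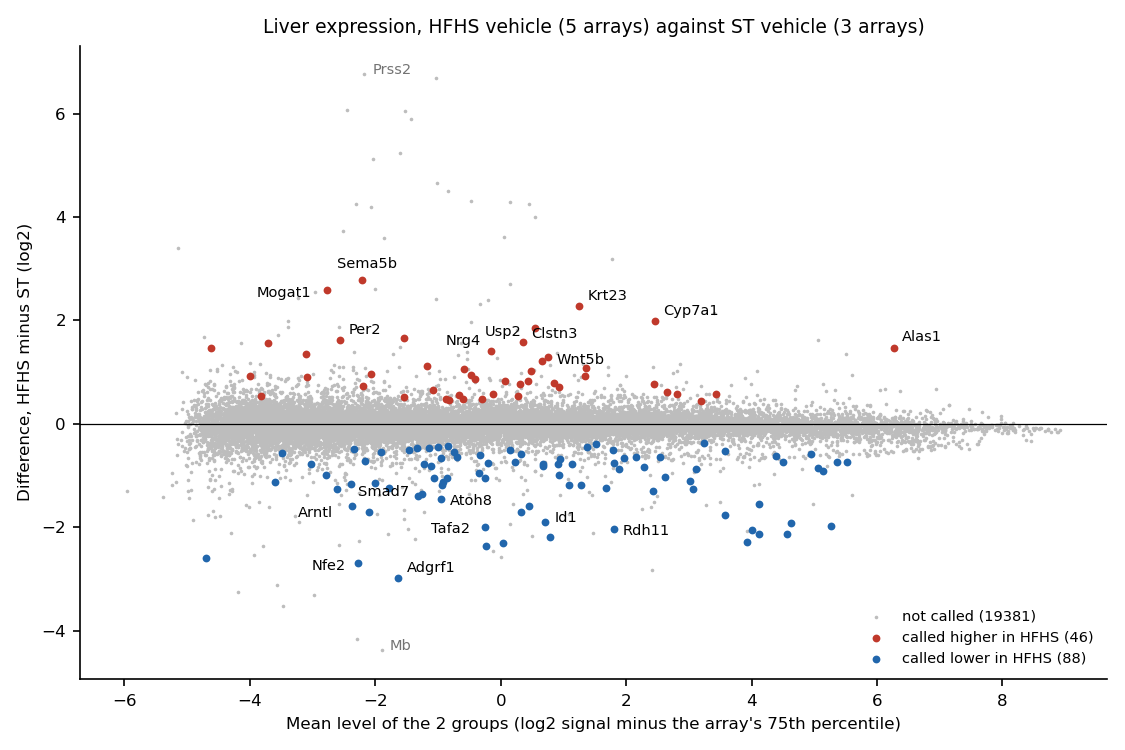
Difference between HFHS and ST (vertical axis, log2) against the mean level of both groups (horizontal axis, log2 signal minus the 75th percentile) for every gene tested. Red points are the 46 genes called higher, blue points the 88 called lower and grey points the rest; the largest grey differences include Prss2, an acinar transcript, and Mb, the muscle myoglobin, which had no usable value on ST replicate 2; neither was called.

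Targets of BMP signalling had the most calls of any list after cholesterol synthesis. Of 35 tested genes of the BMP and SMAD list, 4 fell and 0 rose, where 0.451% of all genes fell. A negative difference was found in 27 members, against 10644 of all 19515 genes. The groups did not overlap in 12 members, all lower on HFHS, where 5.33% of all genes were lower without overlap. The list median was -0.18. The lists were chosen with earlier results of these data known, so these counts describe the list and do not test it. The called members were Id1 and Id3, which encode inhibitors of helix-loop-helix transcription factors, Atoh8, itself a helix-loop-helix factor, and Smad7, the inhibitory SMAD that feeds back on the pathway.

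Id1 had levels of -0.49, -0.22, -0.08, -0.41 and -0.04 on the 5 HFHS arrays and 1.96, 1.71 and 1.28 on the 3 ST arrays. Every HFHS array was thus below every ST array. The gene (probe on mm9 chromosome 2, 152563083 to 152563142) fell by 1.90 ± 0.23 (3.72-fold, limma adjusted p = 0.00705), and it was called in 19 of 20 alternative analyses. Levels of Atoh8 were -1.79, -1.73, -1.95, -1.25 and -1.63 on HFHS and 0.13, -0.45 and -0.35 on ST. Here too the groups stood apart, and Atoh8 fell by 1.44 ± 0.18 (2.72-fold, adjusted p = 0.00819). For Smad7 the HFHS arrays read -2.34, -1.93, -1.81, -1.94 and -1.63 and the ST arrays -0.53, -0.69 and -0.51, again without overlap. Smad7 fell by 1.35 ± 0.21 (2.55-fold, adjusted p = 0.0147). Id3 read 2.19, 2.41, 2.14, 1.90 and 1.94 on HFHS and 3.05, 2.99 and 3.37 on ST, the smallest gap of the 4 genes. It fell by 1.02 ± 0.15 (2.03-fold, adjusted p = 0.0115). With slide as a block, to allow for the slide on which an array was run, Id1, Atoh8 and Smad7 kept their calls and Id3 did not (adjusted p = 0.0575).

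Other members of the response had differences of similar size that missed the threshold. Smad9, a receptor-regulated SMAD of the BMP branch, was at -1.77 ± 0.40 (limma adjusted p = 0.0722) and Id2 at -1.10 ± 0.24 (adjusted p = 0.0634). Hamp, which encodes the iron hormone hepcidin, read 4.64, 5.29, 3.24, 5.58 and 5.84 on HFHS and 6.32, 6.30 and 6.23 on ST. The groups did not overlap, but the spread within HFHS was wide and the difference of -1.37 ± 0.54 was not called (adjusted p = 0.315). Follistatin (Fst), an inhibitor of activins, was at -1.28 ± 0.34 (adjusted p = 0.132). The ligand genes stood closer to zero, with Bmp6 at -0.18 ± 0.18 and Bmp2 at -0.13 ± 0.10. Among the SMADs that carry the signal, Smad1 was at -0.30 ± 0.16. Genes of iron handling and heme, a list of 31, had 14 positive differences and a median of -0.01. Without overlap 7 were higher and 2 lower, against 3.82% and 5.33% of all genes, and Alas1 alone was called, as higher.

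The few called genes of fat uptake and triglyceride synthesis rose. Of 18 triglyceride synthesis genes 2 rose and 0 fell, and of 13 genes of fatty acid uptake and binding 1 rose and 0 fell, where 0.236% of all genes rose. The uptake list had 8 positive and 5 negative differences and a median of 0.06. Its largest difference was negative, that of Fabp5 at -1.58, which was not called. Mogat1, a monoacylglycerol acyltransferase, read -1.16, -0.21, -1.47, -2.84 and -1.68 on HFHS and -3.97, -3.55 and -4.64 on ST. It rose by 2.58 ± 0.49 (5.98-fold, limma adjusted p = 0.0398), and HFHS replicates 1 and 2 alone gave 3.37. The call of Mogat1 held in 8 of 20 alternative analyses. Agpat1, which acylates lysophosphatidic acid, rose by 0.65 ± 0.10 (1.57-fold, adjusted p = 0.0162), with levels of -0.93 to -0.53 on HFHS and -1.50 to -1.33 on ST. Cd36, the fatty acid translocase, read 1.72, 1.95, 1.76, 1.67 and 1.93 on HFHS and 1.06, 0.98 and 0.61 on ST. None of the 3 genes overlapped between the groups. Cd36 rose by 0.93 ± 0.18 (1.90-fold, adjusted p = 0.0458), close to the threshold, and the call held in 4 of 20 alternative analyses. Mogat1 and Agpat1 kept their calls with slide as a block and Cd36 did not (adjusted p = 0.156). Without ST replicate 1 the adjusted p was 0.130 for Mogat1, 0.0917 for Agpat1 and 0.105 for Cd36. The mean of adipocyte markers was higher on ST replicates 1 and 2, and the part of these markers in the lipid gene differences was not tested.

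The other enzymes of triglyceride synthesis were not called and the list median was -0.02. Dgat1 and Dgat2, which complete the triglyceride molecule, were at 0.01 ± 0.13 and 0.22 ± 0.12, and Gpam, which begins it, at -0.24 ± 0.17. Lpin1, a phosphatidate phosphatase, was at -0.83 ± 0.22 (limma adjusted p = 0.126). None of 22 lipid droplet proteins and lipases was called, and 6 members were higher without overlap (3.82% of all genes). These included Plin4, a droplet coat protein (1.25 ± 0.31, adjusted p = 0.105), and G0s2, an inhibitor of triglyceride lipase (1.15 ± 0.42, adjusted p = 0.280). Plin2, the main coat protein of liver droplets, was lower on every HFHS array (-0.41 ± 0.15, adjusted p = 0.287).

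Peroxisomal and omega oxidation genes had the highest median of the 39 lists, 0.26 over 30 genes, though none was called. Of these genes 22 had a positive and 8 a negative difference, and 10 were higher without overlap (3.82% of all genes). The largest difference was negative, that of Cyp4a12a at -1.07. The acyl-CoA thioesterase Acot3 came closest to the threshold at 1.02 ± 0.23 (limma adjusted p = 0.0722). It read 4.85, 4.63, 4.62, 4.12 and 4.79 on HFHS and 3.61, 4.13 and 2.99 on ST, so that the lowest HFHS array lay just below the highest ST array. Cyp4a14, a fatty acid omega hydroxylase, was at 0.68 ± 0.36 and Acaa1b, a peroxisomal thiolase, at 0.66 ± 0.18 (adjusted p = 0.511 and 0.141). The list mean was lowest on HFHS replicate 4 (3.94) and lay between 4.13 and 4.20 on the other HFHS arrays and between 3.78 and 3.89 on ST. Mitochondrial oxidation and ketone body genes were positive in 26 of 32, with a median of 0.11 and no call, and the largest difference was that of Pdk4 at -1.08. Acss2, the cytosolic acetyl-CoA synthetase, was the only called gene among 16 of fatty acid synthesis. It fell by 1.76 ± 0.29 (3.38-fold, adjusted p = 0.0216), and the list had 12 negative differences and a median of -0.31. Acsl3, a long-chain acyl-CoA synthetase, was the only called gene among 14 of polyunsaturated fatty acid synthesis. Acsl3 fell by 1.12 ± 0.23 (2.17-fold, adjusted p = 0.0498), a call held in 3 of 20 alternative analyses and lost with slide as a block (adjusted p = 0.150).

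**Figure D3:**
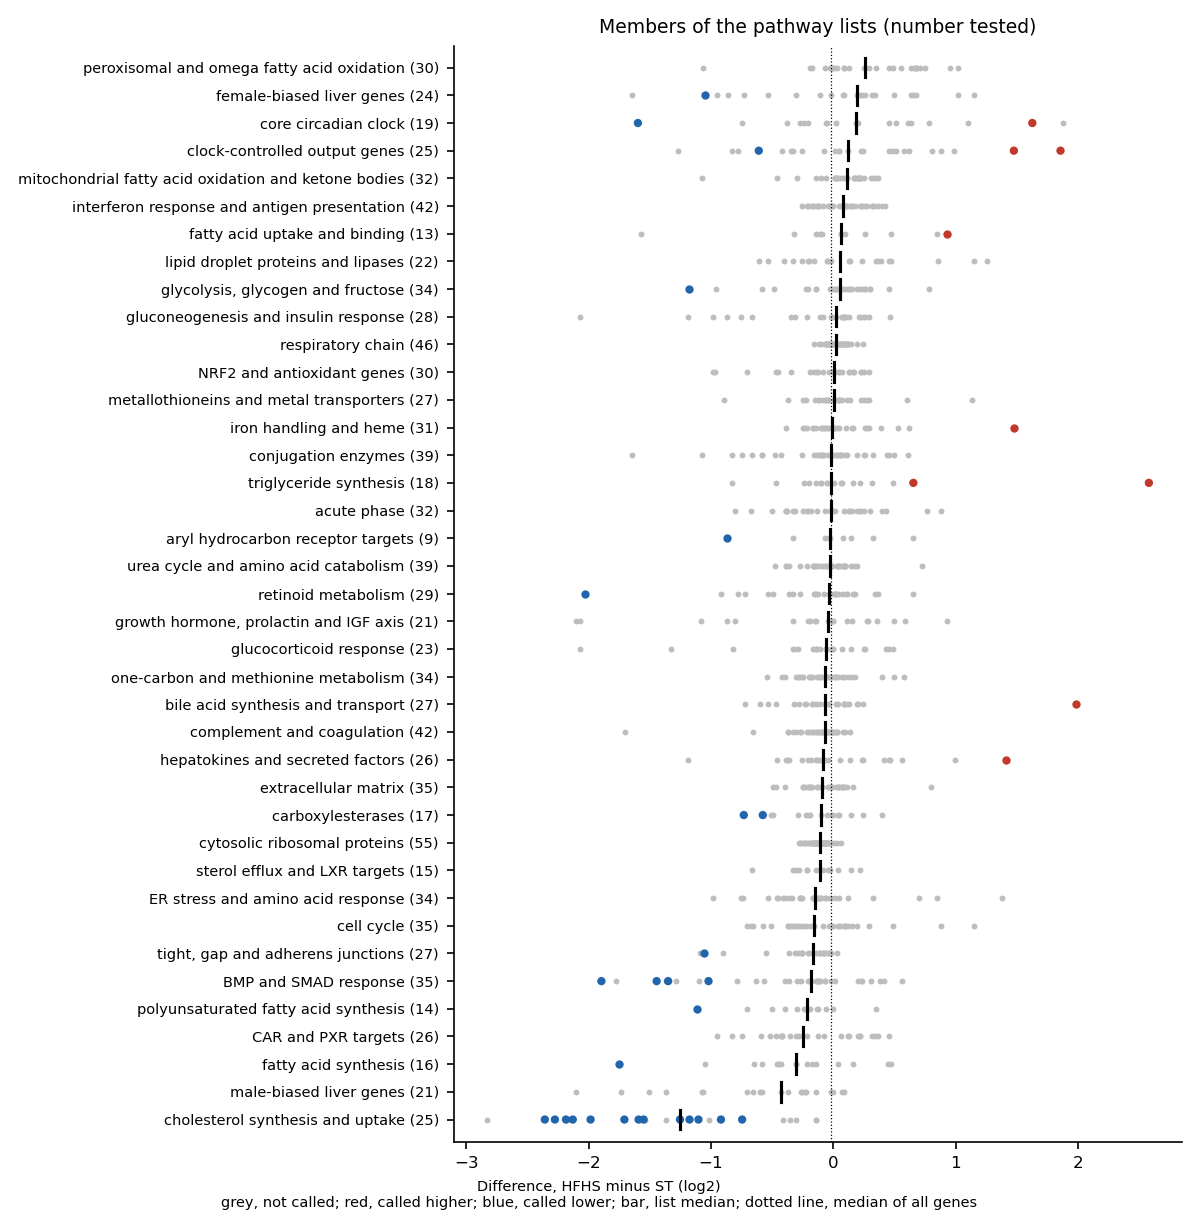
Difference between HFHS and ST (horizontal axis, log2) of every tested member of the 39 pathway lists, ordered by their medians. Red and blue points are called higher and lower, black bars are list medians, and the dotted line is the median of all genes; the medians run from -1.25 for cholesterol synthesis and uptake to 0.26 for peroxisomal and omega fatty acid oxidation, and calls lie in 17 of the lists.

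Bile acid synthesis differed in a single called gene. Cyp7a1, the rate-limiting enzyme of the classical pathway, read 3.08, 3.61, 3.46, 3.08 and 4.01 on HFHS and 0.85, 1.32 and 2.23 on ST. All HFHS arrays lay above all ST arrays. Cyp7a1 rose by 1.99 ± 0.29 (3.96-fold, limma adjusted p = 0.0125), and without ST replicates 1 and 2 in turn its adjusted p was 0.0597 and 0.0508. Cyp8b1 and Cyp27a1, enzymes of the same route and of the alternative route, were at -0.18 ± 0.32 and -0.54 ± 0.18 and were not called. Abcb11, the bile salt export pump, was at -0.32 ± 0.08 (adjusted p = 0.124). Nr0b2, a repressor of Cyp7a1 that bile acids induce, read between -0.29 and 1.31 on HFHS and between -0.24 and 1.03 on ST, with a difference of -0.07 ± 0.35. The 27 genes of the list had a median of -0.07.

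The 15 tested genes of sterol efflux and LXR targets had no call. Some called genes outside the cholesterol list are described next, chosen after their values were seen and not as a group. Rdh11, a retinol dehydrogenase, read 0.97, 1.24, 0.75, 0.25 and 0.73 on HFHS and 2.59, 3.14 and 2.73 on ST. It fell by 2.03 ± 0.24 (4.08-fold, limma adjusted p = 0.00705), and no other of 29 genes of retinoid metabolism was called. Aldoc, an aldolase, fell by 1.30 ± 0.19 (2.46-fold, adjusted p = 0.0131), with levels of 1.25 to 2.12 on HFHS and 2.95 to 3.19 on ST. Erg28, which encodes a scaffold of sterol enzymes, fell by 0.86 ± 0.17 (adjusted p = 0.0428) and Lbr, the lamin B receptor with sterol reductase activity, by 0.54 ± 0.10 (adjusted p = 0.0284). In the other direction Osbpl5, an oxysterol-binding-protein relative that moves lipids between membranes, rose by 1.03 ± 0.16 (2.04-fold, adjusted p = 0.0145). With slide as a block Erg28 and Lbr lost their calls (adjusted p = 0.0771 and 0.0809), and Rdh11, Aldoc and Osbpl5 kept them.

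Promoters of the called genes were searched for short motifs on both strands, in windows of 300 bases from 250 before to 50 from the start site on, which were found for 95 of the 134 called genes. A sterol regulatory element, TCACNCCAC, was present for 3 of 60 genes that fell (5.00%) and 0 of 35 that rose, against 180 of 12392 tested genes (1.45%). The carriers were Hmgcs1, the cytosolic HMG-CoA synthase of the cholesterol list, Aldoc and a second start of Camk1d, a calmodulin-dependent kinase that fell by 0.83 ± 0.15 and lost its call with slide as a block (adjusted p = 0.105). The windows of Hmgcs1 (chr13:119690101-119690400) and Aldoc (chr11:78322823-78323122), both on the plus strand of GRCm38.p6 and taken from RefSeq, are shown because one is a known sterol target and the other lies outside the list. Capitals mark the element, at -137 and at -80 relative to the start.
Hmgcs1: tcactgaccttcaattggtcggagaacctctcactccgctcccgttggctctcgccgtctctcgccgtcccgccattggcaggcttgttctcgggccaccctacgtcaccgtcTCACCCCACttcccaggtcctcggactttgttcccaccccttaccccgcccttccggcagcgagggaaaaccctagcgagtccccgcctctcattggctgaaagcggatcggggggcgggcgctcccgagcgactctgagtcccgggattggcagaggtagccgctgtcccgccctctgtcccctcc
Aldoc: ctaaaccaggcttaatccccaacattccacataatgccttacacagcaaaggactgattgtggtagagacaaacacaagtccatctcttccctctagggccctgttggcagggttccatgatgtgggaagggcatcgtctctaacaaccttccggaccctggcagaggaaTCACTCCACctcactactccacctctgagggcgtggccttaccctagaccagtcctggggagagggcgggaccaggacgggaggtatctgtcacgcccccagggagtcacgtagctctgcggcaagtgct
Of the other motifs searched, the BMP element GGCGCC was found for 14 of 60 genes that fell, 7 of 35 that rose and 2607 of 12392 tested genes. The E-box CACGTG was found for 11.7% and 14.3% of these genes and 10.5% of tested genes, the cyclic AMP element TGACGTCA for 0 of 60 and 2 of 35, against 3.08%, and the D-box TTANGTAA for 1 in each group, against 2.16%. These matches are of letters only, and binding was not measured.

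Genes of the daily clock and its output were called in both directions. Of 19 core clock genes 1 rose and 1 fell, and of 25 output genes 2 rose and 1 fell. Over all genes 0.236% rose and 0.451% fell. Without overlap 5 core genes were higher and 1 lower, and 6 output genes higher and 6 lower, against 3.82% and 5.33% of all genes. The list medians were 0.18 and 0.12. Per2, a repressor of the clock, read -2.16, -1.83, -1.47, -1.63 and -1.62 on HFHS and -3.12, -2.69 and -4.30 on ST. It rose by 1.63 ± 0.29 (3.09-fold, limma adjusted p = 0.0258). Arntl, which encodes the activator BMAL1, read -2.89, -3.02, -2.92, -3.51 and -3.55 on HFHS and -1.77, -2.20 and -0.76 on ST. It fell by 1.60 ± 0.28 (3.03-fold, adjusted p = 0.0242). In both genes the groups did not overlap and ST replicate 3 was the most distant array. Usp2, a deubiquitinase with a strong daily rhythm, rose by 1.86 ± 0.32 (3.62-fold, adjusted p = 0.0233), with levels of 1.13 to 2.08 on HFHS and of -0.56, 0.54 and -1.13 on ST.

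Differences in these genes were larger on slide 5, which held ST replicate 3, than on slides 1 and 2. Per2 differed by 0.96, 0.85 and 2.68 within slides 1, 2 and 5, Arntl by -1.12, -0.82 and -2.79, and Usp2 by 1.69, 0.78 and 3.21. Without ST replicate 3 Per2 was at 1.16 and still called (limma adjusted p = 0.0392), Arntl at -1.19 (adjusted p = 0.0597) and Usp2 at 1.48 (adjusted p = 0.0994). With slide as a block none of the 3 was called (adjusted p = 0.105, 0.0927 and 0.0967). The same array had the highest means of male-biased liver genes (2.91, against 1.18 to 1.69 on the other 7 arrays) and of cell cycle genes (-0.19, against -1.29 to -0.80), and the part of these in the clock differences was not tested. Per3 (2.15-fold higher, adjusted p = 0.0944) and Ciart (1.88 ± 0.49, adjusted p = 0.128), repressors like Per2, and Nr1d1 (-0.74 ± 0.31, adjusted p = 0.346), a repressor of Arntl, were not called.

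Alas1, the rate-limiting enzyme of heme synthesis and a gene with a daily rhythm, was higher on every HFHS array than on any ST array. It read 6.54, 7.11, 6.89, 7.04 and 7.45 on HFHS and 5.27, 5.90 and 5.41 on ST. Alas1 rose by 1.48 ± 0.21 (2.78-fold, limma adjusted p = 0.0115), a second probe gave 1.06, and the gene kept its call with slide as a block (adjusted p = 0.0224). Leo1, a subunit of the Paf1 complex of transcription elongation placed in the output list, fell by 0.61 ± 0.12 (1.53-fold, adjusted p = 0.0406), a call lost with slide as a block (adjusted p = 0.106). The ROR element TAGGTCA, which ROR activators and NR1D repressors recognise, occurred for 3 of 60 genes that fell (5.00%), 1 of 35 that rose (2.86%) and 328 of 12392 tested genes (2.65%). It lay at 31 in a window of Arntl (chr7:113207261-113207560) and at -63 in that of Leo1 (chr9:75441274-75441573), both on the plus strand of GRCm38.p6 and from RefSeq. These windows are given because both genes are in the clock lists, with the element in capitals.
Arntl: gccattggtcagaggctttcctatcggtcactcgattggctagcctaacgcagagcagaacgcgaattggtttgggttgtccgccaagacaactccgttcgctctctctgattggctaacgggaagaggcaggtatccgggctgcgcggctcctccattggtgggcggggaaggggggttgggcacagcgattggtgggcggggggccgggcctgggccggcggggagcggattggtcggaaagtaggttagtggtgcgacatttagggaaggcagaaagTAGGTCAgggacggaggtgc
Leo1: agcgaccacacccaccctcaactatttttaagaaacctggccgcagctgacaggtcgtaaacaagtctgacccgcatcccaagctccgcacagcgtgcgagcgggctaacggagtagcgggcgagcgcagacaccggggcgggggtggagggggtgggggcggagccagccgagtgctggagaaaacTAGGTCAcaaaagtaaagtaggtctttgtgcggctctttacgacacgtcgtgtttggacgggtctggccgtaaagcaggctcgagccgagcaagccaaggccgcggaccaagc
Dhcr7, of the cholesterol list, was the third gene that fell with this element.

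Called genes of the aryl hydrocarbon receptor and carboxylesterase lists fell. Cyp1a2, the main aryl hydrocarbon receptor target of liver, read 2.51, 2.75, 2.67, 2.85 and 2.58 on HFHS and 3.37, 3.66 and 3.58 on ST. It fell by 0.87 ± 0.17 (1.82-fold, limma adjusted p = 0.0401), and no other of the 9 tested targets was called. The targets had 4 positive and 5 negative differences and a median of -0.03, near the -0.02 of all genes. Of 17 carboxylesterases 2 fell and 0 rose, where 0.451% of all genes fell and 0.236% rose. The list had 6 positive and 11 negative differences and a median of -0.10. Ces2a fell by 0.73 ± 0.12 (1.66-fold, adjusted p = 0.0229) and Ces2c by 0.58 ± 0.10 (1.49-fold, adjusted p = 0.0259). Their levels were 4.98 to 5.43 and 4.55 to 4.75 on HFHS and 5.74 to 6.10 and 5.10 to 5.39 on ST, so that neither overlapped. The calls of Cyp1a2, Ces2a and Ces2c held in 7, 10 and 5 of 20 alternative analyses, among them that with slide as a block (adjusted p = 0.0393, 0.0183 and 0.0479). Abca8b, a transporter of the ABC family, fell by 0.66 ± 0.09 (1.58-fold, adjusted p = 0.00969). Of 26 CAR and PXR targets 6 were lower and 0 higher without overlap, against 5.33% and 3.82% of all genes. None of the targets was called, and their median was -0.25. Among them Cyp2b10 was at 0.20 ± 0.15 and Cyp3a11 at 0.06 ± 0.16. The 39 conjugation enzymes and 30 NRF2 and antioxidant genes had no call and medians of -0.02 and 0.01.

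The largest rise of any called gene was that of Sema5b, a semaphorin of the cell membrane. Its levels were -0.47, -0.32, -1.65, -1.15 and -0.49 on HFHS and -3.89, -3.60 and -3.31 on ST. The lowest HFHS array was thus well above the highest ST array. Sema5b rose by 2.78 ± 0.33 (6.88-fold, limma adjusted p = 0.00705) and was called in 19 of 20 alternative analyses. Other probes of the gene gave 2.80 and 0.50. Krt23, a keratin, read 1.90, 3.04, 2.36, 2.37 and 2.26 on HFHS and 0.47, 0.67 and -0.80 on ST. It rose by 2.27 ± 0.33 (4.83-fold, adjusted p = 0.0115). Krt23 was the only marker of the cholangiocyte list that was called, and the other 7 measured markers of bile duct cells had negative differences, with Krt19 at -0.75 ± 0.38.

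Of 26 hepatokines and secreted factors 1 rose and 0 fell, where 0.236% of all genes rose and 0.451% fell. In this list 16 had a negative difference, and the median was -0.08. The called gene, Nrg4, a neuregulin secreted by liver and brown fat, read 0.33, 0.91, 0.26, 0.64 and 0.63 on HFHS and -0.77, -0.69 and -1.13 on ST. It rose by 1.41 ± 0.19 (2.66-fold, limma adjusted p = 0.0115), with other probes at 0.71 and 1.45. Apoa4, an apolipoprotein of the same list, was at 0.99 ± 0.22 (adjusted p = 0.0677), and Fgf21 at -0.46 ± 0.62. Outside the lists, Wnt5b, a Wnt ligand, rose by 1.29 ± 0.18 (2.44-fold, adjusted p = 0.0115), with 1.18 to 1.76 on HFHS and at most 0.28 on ST. Clstn3, a calsyntenin, rose by 1.58 ± 0.32 (2.99-fold, adjusted p = 0.0498), and HFHS replicates 1 and 2 alone gave 2.14. The call of Clstn3 held in 6 of 20 alternative analyses. The sphingosine-1-phosphate receptor S1pr5 rose by 1.06 ± 0.16 (2.09-fold, adjusted p = 0.0147), and Slc5a6, the transporter of biotin and pantothenate, by 1.08 ± 0.16 (2.12-fold, adjusted p = 0.0115). Lrp4, a receptor of the LDL receptor family, rose by 0.56 ± 0.10 (adjusted p = 0.0248), and it alone of these called genes lost its call with slide as a block (adjusted p = 0.0967).

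Among smaller calls, again chosen singly, Esrra, the nuclear receptor ERR alpha, rose by 0.57 ± 0.10 (1.48-fold, limma adjusted p = 0.0304), with 3.01 to 3.18 on HFHS and 2.32 to 2.68 on ST. Miga2, a protein of mitochondrial fusion, rose by 0.58 ± 0.11 (adjusted p = 0.0303) and Sfxn5, a sideroflexin of the inner membrane, by 0.70 ± 0.12 (adjusted p = 0.0242). Esrra and Sfxn5 lost their calls with slide as a block (adjusted p = 0.103 and 0.0915) and Miga2 kept its call. The 46 respiratory chain genes had no call and a median of 0.02. Radx, a gene of DNA replication, was well above background on all 5 HFHS arrays and on 0 ST arrays. The filter needed only 1 group, so the call of Radx (adjusted p = 0.0401) is not independent of that choice. With ST held at or above its dimmest well-measured signal, Radx was at least 2.37-fold higher in the main processing. Its difference ranged from 0.41 to 1.82 over the alternatives, and the call held in 5 of 19. For some called genes the probes differed. Pdxp, a pyridoxal phosphatase, was called at 1.57 ± 0.30 while its other probe gave 0.17. The called probe of Pdxp was well above background on all 5 HFHS arrays and on 2 ST arrays. Of these groups it passed the filter through HFHS alone, so this call too is not independent of the filter. It held in 3 of 19 alternatives. Spsb4 was called at 1.11 ± 0.19 while another probe well above background gave -0.18. Radx, Pdxp and Spsb4 lost their calls with slide as a block (adjusted p = 0.0915, 0.0665 and 0.118).

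**Figure D4:**
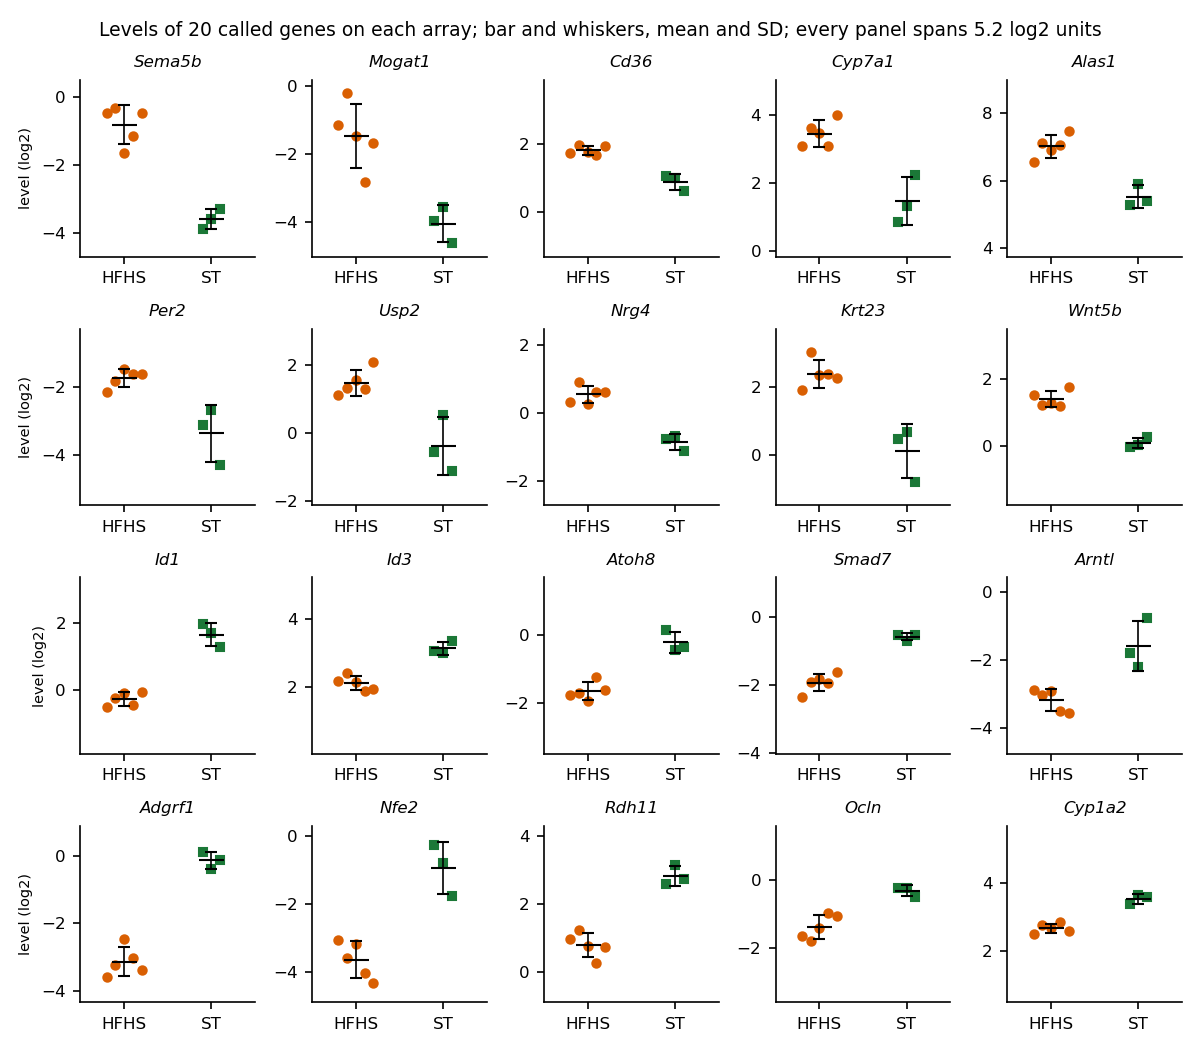
Levels of 20 called genes (vertical axis, log2 signal minus the 75th percentile) on the 5 HFHS arrays (circles) and 3 ST arrays (squares), with the mean and SD of each group and the same length of axis in every panel. In each gene the groups do not overlap; the widest gaps are those of Adgrf1 and Sema5b, and Arntl, Per2, Nfe2, Cyp7a1 and Krt23 have an ST array that stands away from the other two.

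Adgrf1, an adhesion receptor coupled to G proteins, had the largest fall. It read -3.56, -3.23, -2.45, -3.02 and -3.38 on HFHS and 0.11, -0.40 and -0.13 on ST. Adgrf1 fell by 2.99 ± 0.34 (7.93-fold, limma adjusted p = 0.00705), and it was called in 17 of 20 alternative analyses. Nfe2, a transcription factor known from erythroid cells and megakaryocytes, read -3.04, -3.58, -3.16, -4.03 and -4.33 on HFHS and -0.25, -0.78 and -1.76 on ST. It fell by 2.70 ± 0.36 (6.48-fold, adjusted p = 0.0110). The 7 measured erythroid markers had positive differences, none called, with list means of 3.51 to 4.22 on HFHS and 3.44 to 3.92 on ST.

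Further called falls were those of Tafa2, a secreted chemokine-like protein (1.99 ± 0.37, limma adjusted p = 0.0337), and Evc2, a protein of the primary cilium (1.40 ± 0.24, adjusted p = 0.0242). Zfand4, a zinc finger gene, fell by 1.27 ± 0.14 (2.41-fold, adjusted p = 0.00705), with -3.51 to -3.10 on HFHS and -2.12 to -1.89 on ST. Nipal1, a magnesium transporter of the female-biased list, fell by 1.05 ± 0.17 (2.07-fold, adjusted p = 0.0185). The slide block ended the calls of Tafa2 and Evc2 (adjusted p = 0.121 and 0.119), and Zfand4 and Nipal1 kept theirs.

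Junction genes had nearly uniform negative differences with a single call. Ocln, which encodes the tight junction protein occludin, read -1.66, -1.79, -1.43, -0.97 and -1.07 on HFHS and -0.24, -0.24 and -0.52 on ST. It fell by 1.05 ± 0.18 (2.08-fold, limma adjusted p = 0.0229), its second probe gave -0.67, and with slide as a block its adjusted p was 0.0764. Of the 27 tested genes of tight, gap and adherens junctions 26 were negative, with a median of -0.17, and 5 were lower without overlap. Over all genes, 10644 of 19515 were negative and 5.33% were lower without overlap. Cldn1, a claudin, was at -1.09 ± 0.26 and Cdh1, E-cadherin, at -0.90 ± 0.20 (adjusted p = 0.0916 and 0.0679). The gap junction gene Gjb1 was at -0.29 ± 0.12.

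Ribosomal protein genes also leaned one way by a small amount. Of 55 cytosolic ribosomal protein genes 52 had a negative difference, 9 were lower without overlap (5.33% of all genes) and none was called. Their median of -0.11 kept its direction under the 20 alternatives but ranged from -0.25 with normexp background correction to -0.02 with the authors' value table. Rpl3, with the smallest p, was at -0.28 ± 0.08 (limma adjusted p = 0.178).

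Some large differences were not called. Bcl6, a repressor of the growth hormone response, read 0.12, 0.85, 0.20, 0.66 and 0.22 on HFHS and 3.22, 3.18 and 1.15 on ST. The groups did not overlap and the difference of -2.11 ± 0.43 just missed the threshold (limma adjusted p = 0.0527). Igfbp1, an insulin-repressed binding protein of insulin-like growth factors, was at -2.07 ± 0.56 (adjusted p = 0.142), with 1.77 to 3.74 on HFHS and 4.87 to 5.08 on ST. Trib3 (-0.99 ± 0.36) and Manf (-0.74 ± 0.19) belonged to the ER stress and amino acid list, of which 27 of 34 genes were negative and none was called. Nupr1 of the same list was at 1.38 ± 0.65, and its levels were 1.39, 0.08 and 2.80 on HFHS replicates 3 to 5 and at most -0.67 on the other arrays, so that it was high on the arrays that held acinar markers, whose part in this difference was not tested. Male-biased liver genes had a median of -0.43 with 19 of 21 negative and no call. Without ST replicate 3 the direction was lost, with 11 of 21 positive and 10 negative. Lists of acute phase, complement and coagulation, interferon response, extracellular matrix, urea cycle and one-carbon metabolism genes held no called gene, with medians between -0.09 and 0.08.

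The called genes were compared with and without the arrays that held acinar transcripts. All 46 genes that rose and all 88 that fell kept their direction when HFHS replicates 3 to 5 were left out, each with an unadjusted p under 0.05. Their median sizes were 0.92 and 0.93 with all arrays and 0.94 and 0.87 without these 3, and 22 and 34 genes were at least as large without them. With 2 HFHS arrays left, limma called only 4 genes after adjustment (0.0205%), Sema5b and Clstn3 higher (0.0102%) and Ocln and Cd207, a dendritic cell marker, lower (0.0102%), and 1900 at an unadjusted p under 0.05 (9.74%). The 134 genes also had the same sign within slides 1, 2 and 5, the slides that held both groups. All of them were chosen on these same arrays, so these counts describe the calls and do not test them. With slide as a block 25 of the 46 and 46 of the 88 were called, where 0.179% and 0.251% of all genes were called higher and lower.

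Calls depended on the arrays of the smaller group. Of the 134 genes 23 were called without ST replicate 1, 45 without ST replicate 2 and 35 without ST replicate 3, against 64 to 86 when a single HFHS array was left out. Without the arrays of slide 1, Id1 alone was called, as lower (0.00512%), 1865 genes had an unadjusted p under 0.05 (9.56%), and all 134 kept their sign. Among the 8 arrays of both groups alone, 25 genes were called (0.128%), 8 higher (0.041%) and 17 lower (0.0871%), 18 of them from the 134.

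**Figure D5:**
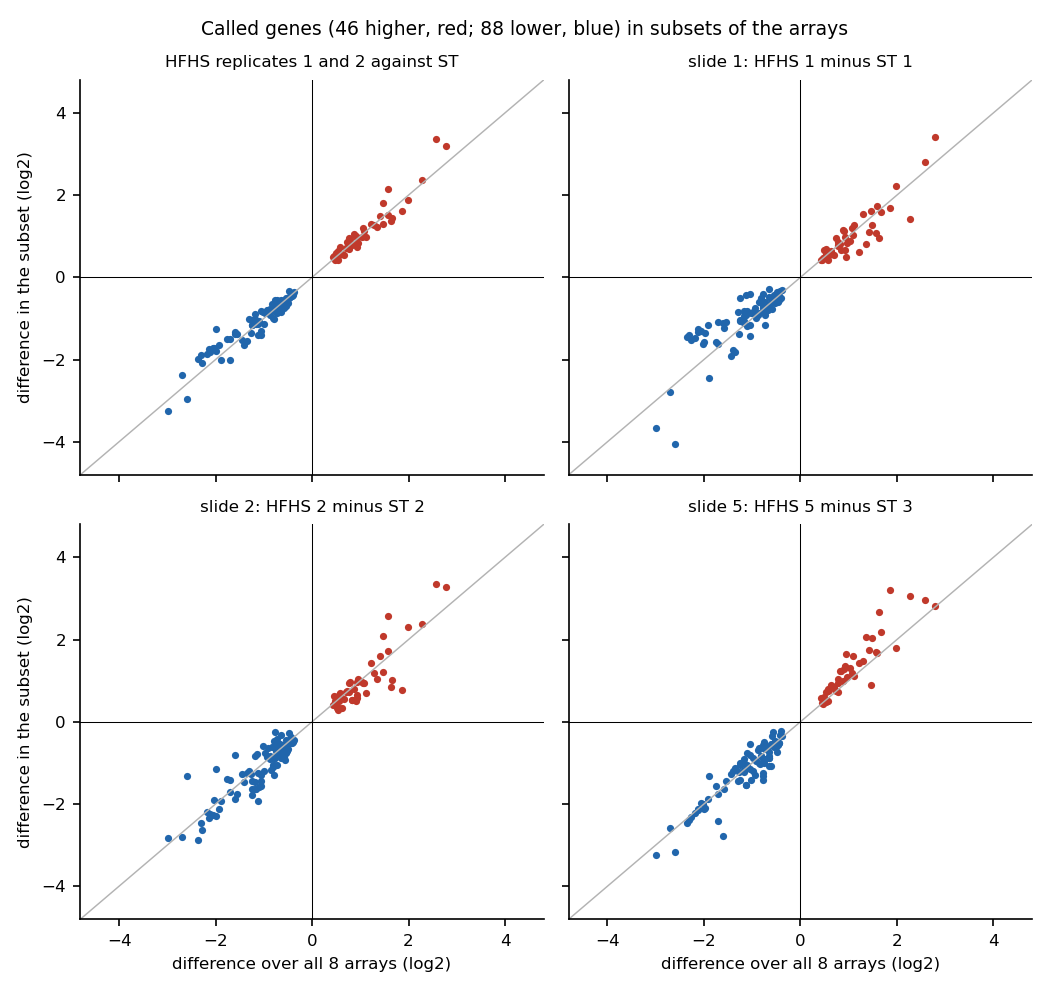
Difference of the 134 called genes over all 8 arrays (horizontal axis, log2) against their difference in a subset (vertical axis, log2), with the grey line marking equal values. The subsets are HFHS replicates 1 and 2 against ST, and the pairs of arrays on slides 1, 2 and 5; all 46 red genes lie above 0 and all 88 blue genes below 0 in each panel.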

How the data were processed

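Total liver RNA was hybridised to 1-colour Agilent arrays, 1 array per sample. The deposited scanner files hold processed signal as intensity, from Agilent Feature Extraction 11.5.1.1 per the file headers. A value table deposited by the authors holds normalized log2 values, for which the submitters' processing notes name limma, with no further steps given in the sources used here. It was used as an alternative, and 13 of its 13 columns matched their own array best.

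The log2 processed signal was scaled to each array's 75th percentile. Control spots were left out and 128 outlier values set missing. Of 39429 probes 25030 well above background were kept, with 1 probe per gene (the highest mean), which left 19515 genes and unnamed transcripts, of which 15732 carried a symbol of the gene table. A model of 3 groups was fitted to all 13 arrays with limma 3.58.1 in R 4.3.3 (10 residual degrees of freedom, Benjamini-Hochberg adjustment over all genes), and it was tested on simulated data. The number of arrays limits the precision, and p-values measure the spread between these samples. Probe coordinates are mm9 as in the files, and promoters are from RefSeq, GRCm38.p6.

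Slides 1, 2 and 5 held both groups, slides 3 and 4 held HFHS but no ST vehicle array, and scan and slide coincided. Alternatives covered background correction, scaling, the authors' table, filters, probe choice, the arrays fitted, slide or replicate number as a block, and each array left out.

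The members, lists and tests were chosen with earlier results of these data known. Genes named are the 20 largest calls in each direction, every called list member, and the smallest p of a list without a call; some of these are not reported here. Uncalled genes beyond these, and smaller calls in no list, were chosen after their values were seen.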

Additional observations from a re-analysis of the deposited data

Results flagged for a closer look

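Of 142 values checked in the 5 HFHS arrays (named genes and list means), 7 (4.93%) had 1 array apart from the other 4, with a gap of over 0.71 of the whole range. Chance gives such a gap in about 1 of 20 groups. HFHS replicate 4 was the distant array in 5 of them. There Dhcr7, a sterol reductase, read -1.29 against -0.38 to -0.29 on the others, and Pmvk, a kinase of the mevalonate pathway, 2.74 against 3.34 to 3.57. The natural killer cell gene Klrb1c read -3.91 against -4.44 to -4.36. The mean of the peroxisomal list was 3.94 against 4.13 to 4.20, and that of extracellular matrix genes 0.31 against 0.12 to 0.14. On HFHS replicate 5 the insulin gene Ins1 read 1.38, against -4.39 to -2.73, and this array also had the highest acinar mean of 5.91. The mean of B and plasma cell markers was highest on HFHS replicate 1, at -2.52 against -2.74 to -2.68.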

How the results depend on the processing

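The counts of 46 genes higher, 88 lower and 36 called in pathway lists stayed within 1.5 times with quantile normalization, the authors' table, the filter on all arrays and the mean of probes. They were 15, 30 and 21 with normexp background correction, which also moved the median of all genes by 0.11 to 0.09, and 23, 45 and 22 with arrays centred on their medians. With no filter on dim probes they were 17, 38 and 18, and with the arrays of the 2 groups alone 8, 17 and 10. Without HFHS replicates 3 to 5 they were 2, 2 and 1, and without slide 1 they were 0 (limma, 1865 at an unadjusted p under 0.05 in either direction), 1 and 1. With slide as a block the genes lower were 49. Leaving out each array in turn gave 8 to 39 higher, 15 to 76 lower and 6 to 33 in lists, the lowest in each without ST replicate 1. The cause of these changes was not tested.

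The replicate numbers did not pair the samples: same-numbered arrays had correlations of 0.56, 0.24 and -0.15 between their deviations from the group means. The 3 pairs that shared a slide, HFHS 1 with ST 1, HFHS 2 with ST 2 and HFHS 5 with ST 3, had 0.56, 0.24 and 0.26, and with slide as a block 71 of the 134 called genes were called. With the replicate block 19 genes were higher, 34 lower and 22 called in lists.

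Among the 55 named genes that were called, 613 of 1097 values under the 20 alternatives stayed past the threshold, 484 kept the direction without it and 0 reversed.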

Other observations

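Called transcripts without a symbol were 5 higher, with differences of 0.73 to 1.66, and 11 lower, with differences of -2.60 to -0.37. By at least 2-fold, 2 of the former and 9 of the latter differed. The transcript at -2.60 was well above background on all 3 ST arrays and on 1 HFHS array. Of these groups it passed the filter through ST alone, so its call is not independent of the filter. Of the 9 measured markers of T and NK cells 8 had negative differences, none called, with a median of -0.35. Those of Kupffer cells and macrophages had 8 of 12 positive and a median of 0.06, again with no call.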
